A study of Mus musculus with 10 samples.

Results

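Complement is a protein cascade of innate immunity. Its genes were examined here for 36 members that encode recognition molecules including collectins and ficolins, proteases, central and terminal components, receptors and regulators. They were taken by gene symbol from the 25233 genes with a symbol in an RNA sequencing series. Its 10 libraries are labelled as mouse hepatic stellate cells (HSCs), the lipid-storing pericytes of the liver. The comparison was hypertrophied HSCs (hypHSCs) against quiescent HSCs (qHSCs), all from C57BL/6J mice. The 5 hypHSC libraries came from mice on CDAHFD, a high-fat diet of defined amino acids that lacks choline and causes steatosis and fibrosis. hypHSC 1 and 2 followed 13 weeks of diet at an age of 19 weeks, and hypHSC 3 to 5 followed 12 weeks at 18 weeks. The 5 qHSC libraries came from mice on a standard diet, aged 36 weeks for qHSC 1, 2 and 5 and 34 weeks for qHSC 3 and 4. Both cell types were enriched on a density gradient and sorted by light signals and fluorescence without a marker antibody, hypHSCs by green fluorescence and qHSCs by the blue fluorescence of stored vitamin A. The CDAHFD livers were digested more strongly than the standard livers. Diet, age, digestion and gate therefore changed together between the groups and cannot be told apart. The mouse behind each library was not given, so n counts preparations, and the p-values measure the spread between preparations.

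The classical pathway starts when C1q, a hexamer of trimers of the C1qa, C1qb and C1qc chains, binds antibody or altered surfaces and activates the proteases C1r and C1s. The lectin pathway starts when mannose-binding lectins, ficolins or collectins bind microbial sugars and activate the MASP proteases. Both, with the alternative pathway, lead to cleavage of C3, to the anaphylatoxins that act on the C3a and C5a receptors, and to the membrane attack complex. Hepatocytes make most circulating components, and tissue macrophages make C1q.

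Each value below is a normalized count, the read count of a gene divided by the size factor of its library, and lists follow the library numbers 1 to 5. Reads on genes with a symbol numbered 30534719 to 43283589 in hypHSCs and 35640104 to 47317028 in qHSCs, so 3 reads, the floor used here, equalled 2.25 to 4.54 normalized counts, which covers counting error only. Mitochondrial reads took 2.21% to 12.8% in hypHSCs and 1.25% to 1.61% in qHSCs. Lists of cell type markers were used to check the labels. The summed level of 8 quiescent HSC markers was 2979 to 7546 in hypHSCs and 238534 to 353535 in qHSCs, and 8 of 8 were called lower. None was at 0 in every hypHSC library, but Hhip was at most 5.39 in hypHSCs. Hhip reached 10 normalized counts only in qHSC libraries, so its call adds nothing. In hypHSC 4 and 5, Gfap was at 0 in both and Ngfr at 3.15 and 0. The sum of 10 macrophage markers was 1074150 to 1375010 in hypHSCs and 5294 to 82603 in qHSCs, and 10 of 10 were called higher. By these lists the hypHSC libraries were high in macrophage markers and low in quiescent HSC markers. The name hypHSC is therefore used here as the label only, and the part of macrophages in these libraries was not tested. Within the qHSCs the macrophage sum was 35780 in qHSC 1 and 82603 in qHSC 4 but at most 10031 in the other 3 libraries, so results that rest on macrophage-type genes are also given without that pair. The hepatocyte sum over 10 markers overlapped, at 16049 to 241701 against 30823 to 122841, and was highest in hypHSC 5. A gene was called where the absolute log2 fold change was at least 1 and the limma adjusted p at most 0.05.

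Of the 36 complement genes, 34 passed the filter on low values, and Fcnb and Cfd did not. Of these 34, 9 were called higher and 11 lower in hypHSCs and 14 were not called. That is 58.8% called, beside 39.5% of all 14630 genes tested, or 26.5% higher beside 17.8% and 32.4% lower beside 21.7%. The groups did not overlap for 7 genes that were higher and 11 that were lower in hypHSCs, whereas 17.6% and 22% of all genes tested separated in those directions. The median log2 fold change was -1.05 for the complement genes and -0.20 for all genes tested. A two-sided exact permutation of the library labels gives every gene without overlap p = 0.00794, the smallest that 5 libraries against 5 allow. For these 18 genes that p restates the lack of overlap and adds no support. The roles differed in these counts: 4 of 4 receptors were called higher, 3 of 4 initiating proteases lower, and 1 of 6 terminal components lower. The receptor Cd93 is among the 9 genes called higher and the 7 higher genes without overlap. It passed the filter on low values through its hypHSC counts, so its call and separation add nothing to these counts. The complement genes together held 1.44% to 1.98% of the normalized counts in qHSCs and 0.187% to 0.882% in hypHSCs, so the groups did not overlap in this share. A few genes set it, mainly Fcna and Colec11 in qHSCs (means 237103 and 182925) and C1qb in hypHSCs (mean 122228), so it does not describe the genes in general. In bulk libraries fewer cells of a type and less RNA per cell cannot be told apart, here and for every gene below.

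**Figure D1:**
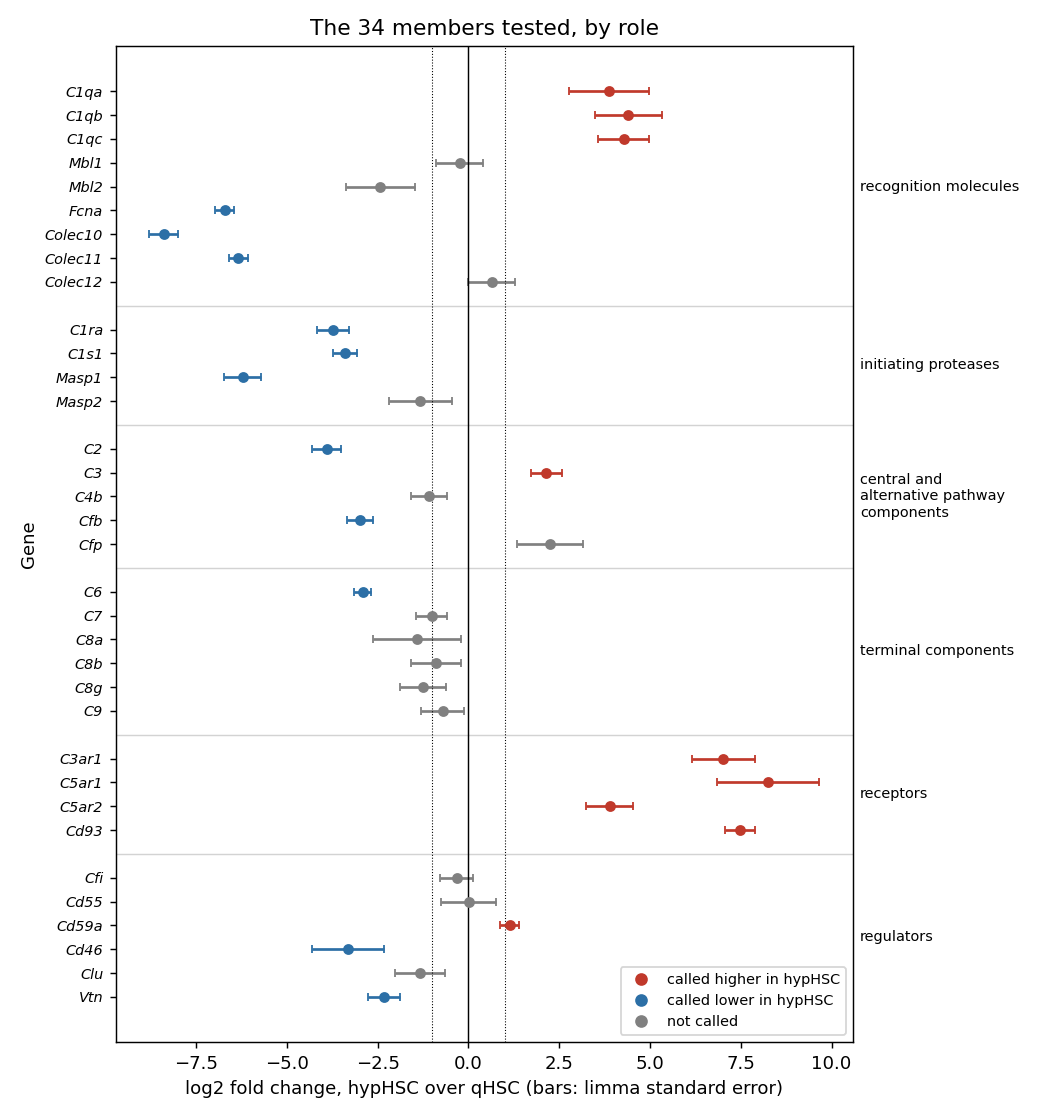
Log2 fold change of hypHSCs over qHSCs (x axis) for the 34 complement genes tested, ordered by role (y axis). Points are limma estimates, bars their standard errors, dotted lines mark a log2 change of 1 in either direction, and colour marks the call. The 4 receptors lie between 3.89 and 8.25, and Fcna, Colec10, Colec11 and Masp1 lie between -8.39 and -6.22.

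The soluble lectins of qHSCs showed the largest falls of the 34 genes tested. Ficolin A (Fcna, chr2:25514679-25517986, GRCm39) recognises acetylated sugars, and Colec10 (chr15:54274166-54329754) and Colec11 (chr12:28644171-28673329) encode the collectins CL-L1 and CL-K1, which form mixed oligomers. Fcna counted 1809.7, 1882, 2225, 4079.9 and 1792 in hypHSCs and 238303, 251353, 167502, 238123 and 290236 in qHSCs. Colec11 counted 3815, 1778, 1493, 2720.3 and 2096 in hypHSCs and 180817, 186696, 137229, 188568 and 221316 in qHSCs. Colec10 counted 141, 144, 34.9, 123 and 177 in hypHSCs and 39942, 52449, 25641, 37958 and 33515 in qHSCs. Every hypHSC library lay far below every qHSC library for these 3 genes. The qHSC means were 101-fold higher for Fcna (2358 ± 979 against 237103 ± 44365, mean ± SD, n = 5, log2 fold change -6.71, SE 0.25, adjusted p = 3.06e-08), 76.8-fold higher for Colec11 (log2 fold change -6.33, SE 0.26, adjusted p = 3.89e-08) and 306-fold higher for Colec10 (log2 fold change -8.39, SE 0.39, adjusted p = 8.93e-08). By FPKM, a level per exon length, Fcna ranked 7 and Colec11 ranked 13 among 23221 genes in qHSCs, and 1032 and 1213 in hypHSCs. Colec10 went from rank 138 to rank 9210 on the same scale. An opposite-strand gene shares 17.24% of the exon bases of Fcna, and reads were counted without strand.

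Masp1 (chr16:23268167-23339565) encodes MASP-1 and MASP-3, proteases of the lectin and alternative pathways, and it fell with the lectins. It counted 767, 774, 1077, 450.1 and 123 in hypHSCs and 42926, 52712, 27374, 35096 and 37263 in qHSCs, again without overlap (log2 fold change -6.22, SE 0.50, adjusted p = 2.90e-06). Masp2 encodes the lectin pathway protease that cleaves C4 and C2. Its counts were 10.8, 32.1, 7.48, 110.2 and 209 in hypHSCs and 118, 41.8, 114, 159 and 77.9 in qHSCs, which overlapped (log2 fold change -1.32, SE 0.86, adjusted p = 0.228), and Tardbp on the opposite strand shares 60.28% of its exon bases. Summed, Fcna, Colec10, Colec11 and Masp1 counted 4188 to 7373 in hypHSCs and 357750.0 to 582330.0 in qHSCs. As a percentage of the quiescent HSC marker sum of the same library, this lectin sum was 86.6% to 154% in hypHSCs and 150.0% to 192% in qHSCs, so relative to those markers the groups overlapped. Whether the lectin genes and the HSC markers fell for a shared reason was not tested.

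None of the other recognition lectins was called. Mbl1 and Mbl2 encode the mannose-binding lectins A and C, which hepatocytes release into plasma. Mbl1 counted 278, 190.5, 79.8, 512 and 1251 in hypHSCs and 612, 190.0, 283, 619 and 303 in qHSCs, with wide overlap (log2 fold change -0.24, SE 0.65, adjusted p = 0.785). Sftpd on the opposite strand, itself a soluble collectin and named here after its values were seen, shares 15.06% of the exon bases of Mbl1. Sftpd counted 959, 232, 119, 119 and 86.2 in hypHSCs and 7.24, 0, 2.36, 0 and 0 in qHSCs, opposite in direction to Fcna, Colec10 and Colec11 (log2 fold change 6.65, SE 0.84). Sftpd was near the floor in qHSCs and passed the filter on low values only through its hypHSC counts, so its call adds nothing. Mbl2 counted 78.2, 4.14, 46.6, 104 and 372 in hypHSCs and 479, 131, 199, 493 and 542 in qHSCs, lower in 4 of the 5 hypHSC libraries than in any qHSC library (log2 fold change -2.43, SE 0.95, adjusted p = 0.0542, exact permutation p = 0.0397). It missed the threshold, but it was called lower with a pseudocount of 5 (adjusted p = 0.0424), with scaling to the same total (0.0262) or on Hprt, Pgk1 and Actb (0.0121), and without hypHSC 5 (log2 fold change -3.09, adjusted p = 0.00965). Colec12, a membrane scavenger receptor collectin, counted 854, 1300.3, 1508, 532 and 185 in hypHSCs and 1062, 922, 178, 241 and 425 in qHSCs (log2 fold change 0.64, SE 0.65, adjusted p = 0.439). The ranges of the groups overlapped almost entirely. Ficolin B (Fcnb), a ficolin of myeloid cells, had 9 reads in hypHSC 1 and 0 in the other 9 libraries.

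**Figure D2:**
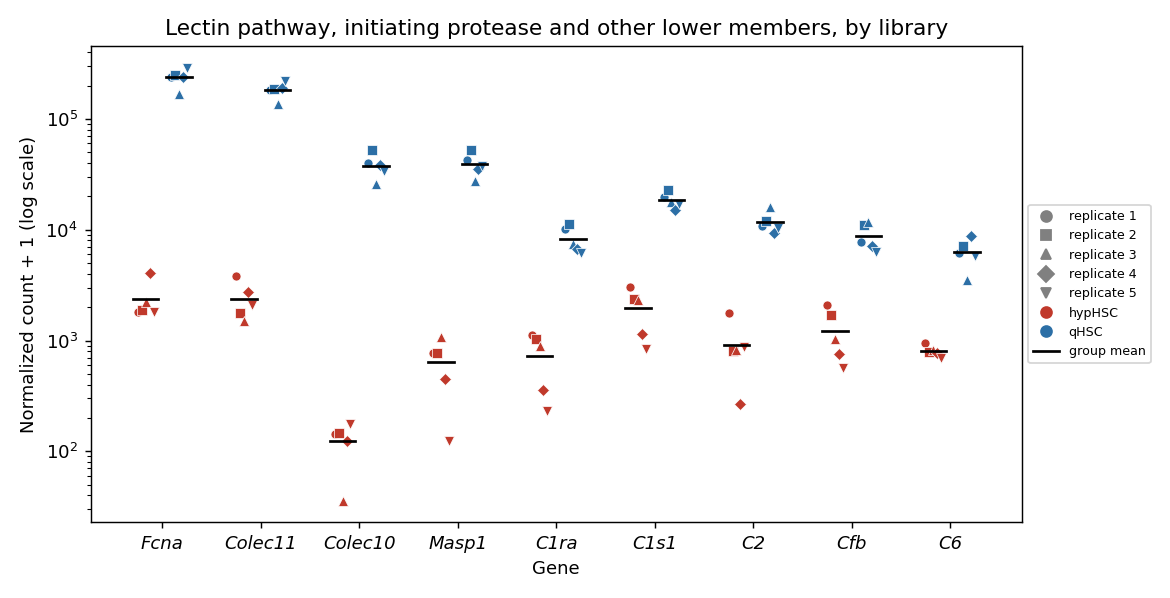
Normalized counts plus 1 (y axis, log scale) of 9 complement genes called lower in hypHSCs (x axis), 1 point per library with the replicate number as symbol, and a bar at the group mean. All qHSC points lie above all hypHSC points of the same gene, and the gap is widest for Colec10, at 34.9 to 177 against 25641 to 52449.

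C1q moved the other way. C1qb (chr4:136607437-136613511), C1qc (chr4:136617113-136620225) and C1qa (chr4:136623227-136626155) lie next to each other on chromosome 4 with 3601 and 3001 bases between them, and all 3 were called higher in hypHSCs. C1qa counted 51668, 42243, 38304, 17653 and 2231 in hypHSCs and 4873, 343, 559, 10288 and 517 in qHSCs (log2 fold change 3.87, SE 1.10, adjusted p = 0.0130). C1qb counted 177694, 171204, 139775, 98712 and 23755 in hypHSCs and 14903, 1227, 1938, 33640.5 and 1955 in qHSCs (log2 fold change 4.41, SE 0.93, adjusted p = 0.00237). C1qc counted 9775, 5158, 4412, 9421 and 11707 in hypHSCs and 796, 115, 198, 2196 and 220.3 in qHSCs (log2 fold change 4.28, SE 0.70, adjusted p = 4.71e-04). C1qc separated the groups, while C1qa and C1qb overlapped, because hypHSC 5 lay below qHSC 1 and qHSC 4 for C1qa and below qHSC 4 for C1qb (exact permutation p = 0.0317 and 0.0159). By FPKM C1qb ranked 80 and C1qa 85 among 23221 genes in hypHSCs, and 719 and 596 in qHSCs. With the 3 hypHSC libraries of 12 weeks alone, C1qa lost its call (log2 fold change 3.05, adjusted p = 0.0808).

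The macrophage marker sums moved with C1q. The same qHSC libraries, 1 and 4, that held the most macrophage marker RNA held the most C1q. The 3 chains summed to 20573 in qHSC 1 and 46124 in qHSC 4 but to 1685 to 2695 in the other qHSCs, and to 37693 to 239140.0 in hypHSCs. Without that pair the log2 fold changes rose to 5.44, 5.90 and 5.46 for C1qa, C1qb and C1qc, with adjusted p of 0.00148, 9.46e-05 and 8.32e-06. As a percentage of the macrophage marker sum, C1q was 3.51% to 18.9% in hypHSCs and 26.9% to 57.5% in qHSCs, so on this ratio the order of the groups turned and they did not overlap. Lyz2 made up 66.9% to 70.4% of that sum in hypHSCs and 23.9% to 40.0% in qHSCs, and with Lyz2 left out the ratios were 11.3% to 64.0% and 41.8% to 94.2%, which overlapped. The sum of 6 resident Kupffer cell markers was 18347 to 34538 in hypHSCs and 1270 to 44861 in qHSCs, with 19247 in qHSC 1 and 44861 in qHSC 4. Of these, 3 of 6 were called higher, and 2 of them, Vsig4 and Cd5l, are also among the further complement genes below. Clec4f, Timd4 and Marco were not called, with log2 fold changes of 1.15, -3.14 and 1.37. The part of macrophage RNA in the C1q result was not tested.

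The balance of the chains differed between hypHSC libraries. The ratio of C1qa to C1qc counts was 5.29, 8.19, 8.68, 1.87 and 0.191 in hypHSC 1 to 5, and 2.35 to 6.12 in qHSCs. hypHSC 5 thus had more C1qc than C1qa, the reverse of every other library, and hypHSC 4 also lay below the qHSC range. The ratio of C1qb to C1qc counts was 18.2, 33.2, 31.7, 10.5 and 2.03 in hypHSCs and 8.87 to 18.7 in qHSCs, where hypHSC 5 alone lay below the qHSC range. hypHSC 5 had the fewest genes with a read, 14028, and the highest hepatocyte marker sum, and their part in these ratios was not tested.

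**Figure D3:**
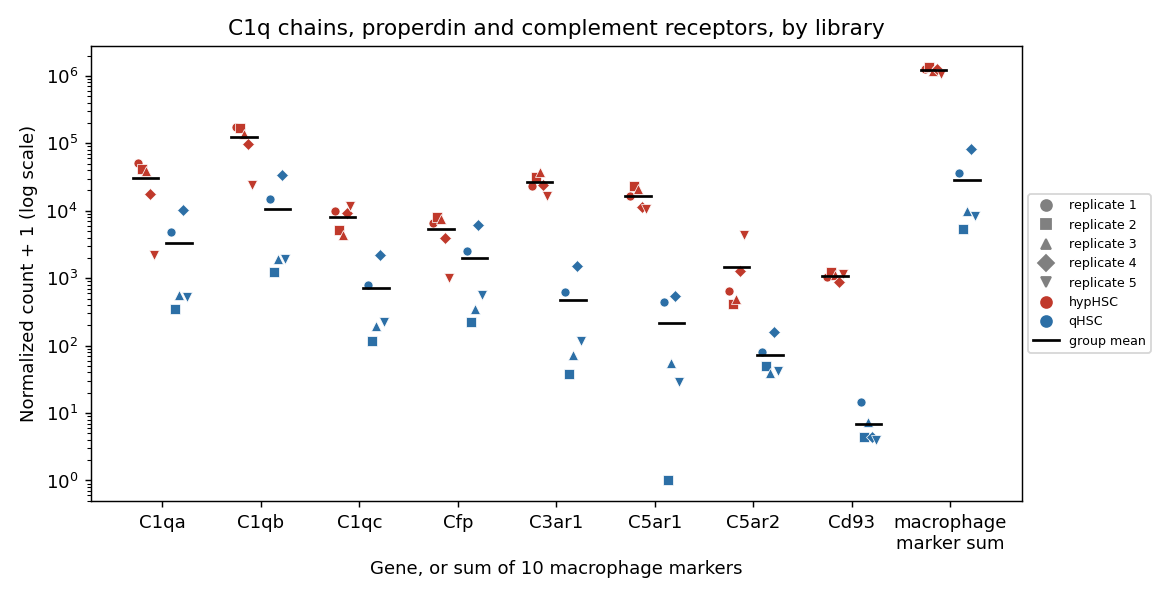
Normalized counts plus 1 (y axis, log scale) of the C1q chains, properdin and the complement receptors, and the sum of 10 macrophage markers (x axis), 1 point per library with the replicate number as symbol, and a bar at the group mean. qHSC 1 and 4 are the highest qHSC libraries for C1qa, C1qb, C1qc, Cfp, C3ar1, C5ar1 and C5ar2 and for the marker sum, whereas Cd93 stays at or below 13.6 in all qHSCs.

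The sequences before the start sites of genes that moved together are shown for a pair from each direction. RefSeq promoter entries, made on GRCm38.p6, matched 26 of the 36 genes, and those printed here were found without a mismatch in GRCm39. C1qa has none. The 250 bases upstream of C1qb and C1qc, neighbours called higher, and of Fcna and Colec11, the lectins with the highest level per length in qHSCs, are printed 5′ to 3′ on the gene's strand. The positions are chr4:136613512-136613761, minus strand, for C1qb, chr4:136620226-136620475, minus strand, for C1qc, chr2:25517987-25518236, minus strand, for Fcna, and chr12:28673330-28673579, minus strand, for Colec11. Capitals mark GAGGAA or its reverse complement TTCCTC, letters found in binding sequences of PU.1, an ETS factor of myeloid cells.
C1qb: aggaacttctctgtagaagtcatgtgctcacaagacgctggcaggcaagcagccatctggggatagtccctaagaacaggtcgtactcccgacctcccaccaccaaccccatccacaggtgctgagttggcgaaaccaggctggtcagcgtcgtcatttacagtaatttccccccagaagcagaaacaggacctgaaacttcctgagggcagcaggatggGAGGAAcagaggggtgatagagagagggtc
C1qc: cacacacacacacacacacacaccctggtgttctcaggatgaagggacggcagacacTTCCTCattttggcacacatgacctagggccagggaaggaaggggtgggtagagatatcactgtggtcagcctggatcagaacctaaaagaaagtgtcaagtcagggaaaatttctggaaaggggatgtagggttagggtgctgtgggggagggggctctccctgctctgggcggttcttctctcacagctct
Fcna: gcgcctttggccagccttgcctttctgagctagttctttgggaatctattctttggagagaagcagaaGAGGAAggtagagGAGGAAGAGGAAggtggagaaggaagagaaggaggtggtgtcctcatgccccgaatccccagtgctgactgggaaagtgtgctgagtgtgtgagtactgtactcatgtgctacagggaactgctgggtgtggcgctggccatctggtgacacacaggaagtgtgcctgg
Colec11: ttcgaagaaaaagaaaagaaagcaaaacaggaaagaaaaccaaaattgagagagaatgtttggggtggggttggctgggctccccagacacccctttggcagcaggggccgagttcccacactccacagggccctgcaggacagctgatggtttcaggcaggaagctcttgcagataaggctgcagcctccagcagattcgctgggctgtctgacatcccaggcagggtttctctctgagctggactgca

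GAGGAA was searched on both strands. It occurred once before C1qb and once before C1qc, 3 times in a purine-rich stretch before Fcna, and not before Colec11. Of all 32851 promoter windows of this length 23.3% held it, beside 4 of 8 windows of genes called higher (C1qb, C1qc, C5ar2 and Cd59a), 1 of 8 of genes called lower (Fcna) and 0 of 11 of genes not called. TTCNNNGAA, a STAT-type palindrome, was in 7.02% of all windows, in 0 of 8 higher, 1 of 8 lower and 3 of 11 not called. TATAAA was in 12.4% of all windows and in 1 of 8, 1 of 8 and 1 of 11. A gene with several starts contributed several windows, the counts are small, and a match is a description of letters only.

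All 4 receptors were higher in hypHSCs, without overlap of the groups. C3ar1 and C5ar1 encode the receptors for the anaphylatoxins C3a and C5a, which draw and activate myeloid cells. C3ar1 (chr6:122824099-122833119) counted 23699, 32227, 37364, 23810.4 and 16616 in hypHSCs and 617, 37.5, 72.4, 1501 and 115 in qHSCs (log2 fold change 7.02, SE 0.86, adjusted p = 5.96e-05). C5ar1 (chr7:15980668-15993465) counted 16592, 23319, 21235, 11428 and 10782 in hypHSCs and 449, 0, 53.5, 539.9 and 27.7 in qHSCs (log2 fold change 8.25, SE 1.41, adjusted p = 6.16e-04). Means differed 57.1-fold and 77.9-fold. By FPKM C5ar1 ranked 240 and C3ar1 296 among 23221 genes in hypHSCs, against 5907 and 5617 in qHSCs. qHSC 2 had no C5ar1 read, so the log2 change of C5ar1 depends on the pseudocount of 1.

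C5ar2, a second C5a receptor that does not couple to G proteins, lies 2587 bases from C5ar1 on chromosome 7. It counted 649.5, 410.0, 493, 1283 and 4389 in hypHSCs and 80.5, 49.4, 37.8, 156 and 40.5 in qHSCs (log2 fold change 3.89, SE 0.64, adjusted p = 4.82e-04), and hypHSC 5 was the highest library for C5ar2 while it was the lowest hypHSC library for C3ar1 and C5ar1. Cd93, a C-type lectin-like surface protein of endothelial and myeloid cells first described as a C1q receptor, was near the floor in qHSCs. It counted 1059, 1254, 1104, 867 and 1162 in hypHSCs and 13.6, 3.41, 6.30, 3.42 and 3 in qHSCs (log2 fold change 7.48, SE 0.41, adjusted p = 2.37e-07), or 768 to 1327 reads against 4 to 15. Cd93 passed the filter on low values through its hypHSC counts, so its call adds nothing. Cd93 was low in qHSC 1 and 4 too, where the macrophage sums were high. The 7 sinusoidal endothelial markers summed to 691 to 1113 in hypHSCs, against 935 to 2200 in qHSCs, with 2 of the 6 tested called higher and 1, Clec4g, called lower. Without Clec4g, named here after its values were seen, the sums were 571 to 817 in hypHSCs and 73.4 to 626 in qHSCs, which overlapped. The single markers were mixed. Stab2, Lyve1, Kdr and Oit3 had higher means in hypHSCs, and Clec4g, Pecam1 and Cdh5 had lower ones. The part of endothelial RNA in the Cd93 result was not tested.

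The summed C3ar1, C5ar1 and C5ar2 counts were 2.88% to 5.02% of the macrophage marker sum in hypHSCs and 1.63% to 3.21% in qHSCs, which overlapped, whereas with Lyz2 left out of the sum it was 8.68% to 16.0% and 2.16% to 5.25%, which did not. Without qHSC 1 and 4 the log2 fold changes of C3ar1 and C5ar1 were 8.55 and 10.40. Neutrophils also carry C5a receptors, and the sum of 7 neutrophil markers was 1462 to 5911 in hypHSCs and 5.43 to 112 in qHSCs, with Retnlg at 0 in every qHSC library. The 3 of these markers that passed the filter did so through their hypHSC counts, so their calls add nothing, and Ly6g, Mpo and Elane were at most 15.0 in any library. The part of either cell type in the receptor values was not tested.

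**Figure D4:**
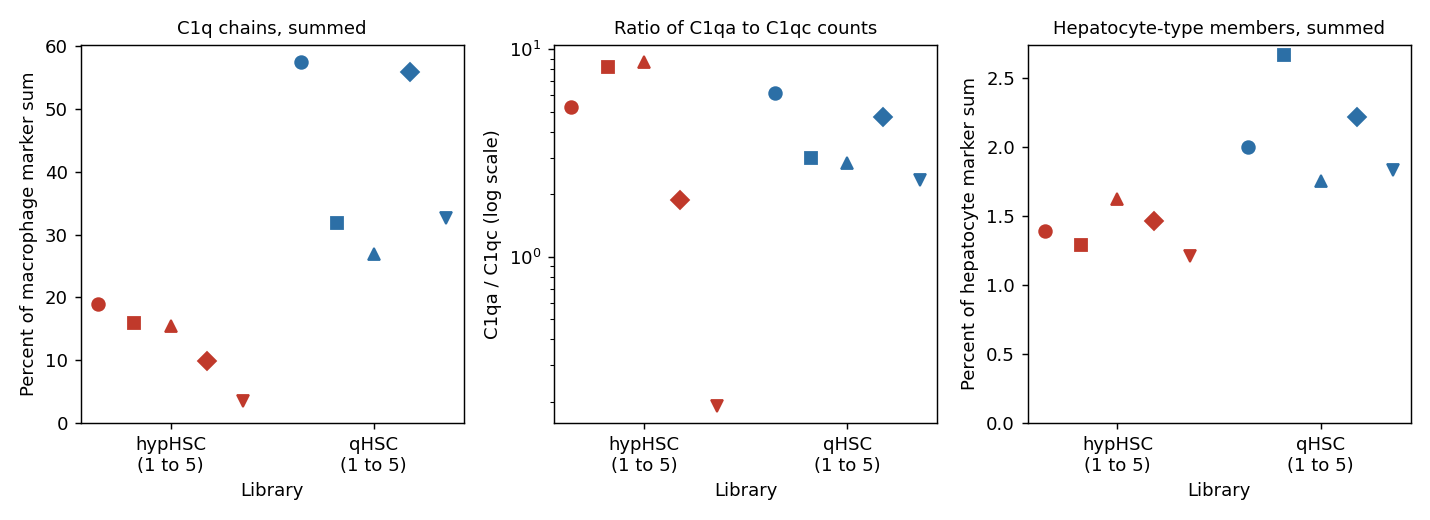
Ratios by library (x axis, replicates 1 to 5 of each group from left to right, red for hypHSCs and blue for qHSCs). Left, C1q chains as a percentage of the sum of 10 macrophage markers, with all hypHSCs at or below 18.9% and all qHSCs at or above 26.9%. Middle, the ratio of C1qa to C1qc counts on a log scale, with hypHSC 5 at 0.191. Right, the sum of Mbl1, Mbl2, C8a, C8b, C8g, C9 and Masp2 as a percentage of the sum of 10 hepatocyte markers, at 1.21% to 1.62% in hypHSCs and 1.75% to 2.67% in qHSCs.

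Unlike C1q, the proteases of the C1 complex were lower in hypHSCs. C1ra and C1s1 encode C1r, which activates C1s, and C1s, which cleaves C4 and C2, and they lie 6903 bases apart on chromosome 6. C1ra (chr6:124489364-124500399) counted 1129, 1023, 885, 359.8 and 228 in hypHSCs and 10064, 11178, 7464, 6670.1 and 6114 in qHSCs. C1s1 (chr6:124507303-124519318) counted 3063, 2390.4, 2324, 1139 and 836 in hypHSCs and 19637, 22618, 17820.5, 15169 and 17179 in qHSCs. Neither gene overlapped between groups (C1ra, log2 fold change -3.72, SE 0.43, adjusted p = 3.90e-05; C1s1, log2 fold change -3.39, SE 0.33, adjusted p = 1.22e-05), and the qHSC means were 11.4-fold and 9.48-fold higher. hypHSC 4 and 5 were the lowest hypHSC libraries for both. Near-identical copies make single-gene values uncertain, since 42.04% of the 59-base stretches of C1ra also occur in C1rb or a further gene and 27.01% of those of C1s1 in C1s2 or a further gene. Both copies were called lower as well (C1rb, -3.77, and C1s2, -3.52). Relative to the quiescent HSC marker sum the order turned, with C1ra and C1s1 together at 29.3% to 115% in hypHSCs and 7.21% to 10.6% in qHSCs. Their fall was thus smaller than that of the markers.

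The central components split by gene. C2 and Cfb encode the protease parts of the classical and alternative C3 convertases and lie 87 bases apart on chromosome 17. C2 (chr17:35081578-35101077) counted 1763, 798, 826, 269 and 869.7 in hypHSCs and 10685, 11898, 15992, 9401 and 10364 in qHSCs (log2 fold change -3.89, SE 0.40, adjusted p = 1.72e-05). Cfb (chr17:35075355-35081490) counted 2079, 1698, 1026, 750.1 and 559.6 in hypHSCs and 7767, 11086, 11832, 7167 and 6314 in qHSCs (log2 fold change -2.98, SE 0.35, adjusted p = 4.84e-05). Both fell without overlap. Their values are uncertain as single genes, since other annotated genes share 42.8% of the exon bases of C2 and 78.25% of those of Cfb, among them a gene that overlaps both.

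C3, the component on which all pathways meet, rose instead. It counted 4247, 2884, 1899, 1437 and 1115 in hypHSCs and 634, 209.6, 437, 768 and 479 in qHSCs, with every hypHSC library above every qHSC library (log2 fold change 2.15, SE 0.42, adjusted p = 0.00144, 4.58-fold). C4b, the convertase subunit cleaved by C1s and MASP-2, counted 5057, 3672, 2516, 1132 and 1349 in hypHSCs and 4524, 8647, 8943, 4265 and 2069.5 in qHSCs. Those values overlapped (log2 fold change -1.09, SE 0.49, adjusted p = 0.0891), and 26.6% of the 59-base stretches of C4b also occur in C4a or further genes. Properdin (Cfp), which stabilises the alternative convertase and is made by myeloid cells, counted 6592, 8166, 7550.0, 3943 and 1022 in hypHSCs and 2552, 226, 343, 6193 and 557 in qHSCs. It missed the threshold (log2 fold change 2.24, SE 0.90, adjusted p = 0.0602, exact permutation p = 0.0635), with qHSC 1 and 4 far above the other qHSCs and hypHSC 5 far below the other hypHSCs. Without qHSC 1 and 4 it passed at 3.64 (adjusted p = 0.00217). Cfp was 0.0952% to 0.642% of the macrophage marker sum in hypHSCs and 3.42% to 7.50% in qHSCs, and without Lyz2 0.306% to 2.05% and 5.60% to 12.0%. Factor D (Cfd), an adipocyte product that cleaves factor B, had 0 to 41 reads in hypHSCs and 0 to 8 in qHSCs and was not tested.

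Of the terminal components, which build the membrane attack complex, only C6 was called at these thresholds. C6 (chr15:4756692-4833526) counted 943, 787, 817, 768 and 700.3 in hypHSCs and 6203, 7076, 3512, 8856 and 5749 in qHSCs. The hypHSC libraries lay in a narrow range below all qHSC libraries (803 ± 89.3 against 6279 ± 1951, mean ± SD, n = 5, log2 fold change -2.91, SE 0.23, adjusted p = 2.50e-06). C7 counted 778, 418, 403, 325 and 593 in hypHSCs and 1721, 2111, 768, 658 and 450.3 in qHSCs, which overlapped (log2 fold change -1.005, SE 0.43, adjusted p = 0.0735). DESeq2 and edgeR on the reads gave C7 a log2 fold change of -1.18 in both, with adjusted p of 0.0206 and 0.0435, so its call depends on the test.

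C8b, C8g and C9 were low in both groups. C8b counted 41.8, 26.9, 25.8, 111 and 182 in hypHSCs and 235, 57.9, 43.3, 213 and 108 in qHSCs (log2 fold change -0.89, SE 0.68, adjusted p = 0.303). C8g counted 63.3, 74.5, 47.4, 212 and 407 in hypHSCs and 482, 98.8, 235, 388 and 348 in qHSCs (log2 fold change -1.25, SE 0.63, adjusted p = 0.125). C9, which forms the ring of the pore, counted 105, 63.1, 51.6, 282 and 487 in hypHSCs and 362, 169.6, 172, 274 and 195 in qHSCs (log2 fold change -0.71, SE 0.59, adjusted p = 0.349). C8a, at 1.66 to 126 against 8.24 to 169, was not called either. hypHSC 5 was the highest hypHSC library for C8b, C8g, C9, Mbl1, Mbl2 and Masp2, and it also had the highest hepatocyte marker sum, 241701. Hepatocytes are the known source of these proteins. Summed with C8a, those genes counted 260.3 to 2921 in hypHSCs and 822 to 2457 in qHSCs, which is 1.21% to 1.62% and 1.75% to 2.67% of the hepatocyte sum. None of the hepatocyte markers was called (0 of 10), and the part of hepatocyte RNA in these levels was not tested.

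The regulators moved in both directions. Vitronectin (Vtn) binds the forming membrane attack complex in plasma, and it counted 429.9, 378, 94.8, 498 and 337 in hypHSCs and 2050.0, 1133, 904, 2138 and 1834 in qHSCs without overlap (log2 fold change -2.32, SE 0.44, adjusted p = 0.00125). Cd46, which in mice is largely confined to the acrosome of sperm, was near the floor in hypHSCs. It counted 18.9, 2.07, 26.6, 54.5 and 0 in hypHSCs and 105, 79.2, 101, 60.8 and 169 in qHSCs (log2 fold change -3.31, SE 0.998, adjusted p = 0.0175), and its call was lost in edgeR (log2 fold change -2.31, adjusted p = 0.0587), with the 12 week hypHSCs alone (adjusted p = 0.0546) and without qHSC 1 and 4 (adjusted p = 0.0575). Cd59a, a membrane protein that blocks C9, was the 1 regulator called higher. It counted 1998, 1316, 871, 1966 and 1503 in hypHSCs and 778, 449, 669, 737 and 765 in qHSCs (log2 fold change 1.14, SE 0.26, adjusted p = 0.00393), without overlap but close to the fold threshold. Its log2 change fell to 0.78 with libraries scaled to the same total, to 0.20 with scaling on Hprt, Pgk1 and Actb, and to 0.99 without qHSC 2.

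Clusterin (Clu), a chaperone that also holds back the terminal complex, varied widely between hypHSC libraries. It counted 45179, 12350.5, 11992, 4697 and 1929.9 in hypHSCs and 22908, 29231, 11416, 26442 and 28812 in qHSCs (log2 fold change -1.32, SE 0.69, adjusted p = 0.136). hypHSC 1 exceeded every qHSC library, while hypHSC 4 and 5 lay below all of them. Without hypHSC 1 it passed at -1.90 (adjusted p = 0.0161). hypHSC 1, the highest library for Clu and C3, was also the highest for the cholangiocyte markers other than Spp1, which summed to 2711 there, 436 to 764 in the other hypHSCs and 4.72 to 56.1 in qHSCs. With Spp1 the 5 cholangiocyte markers summed to 161343 to 336684 in hypHSCs and 30.8 to 387 in qHSCs. Spp1 alone counted 160907 to 335921 in hypHSCs, so the full sum is in effect the level of that gene. All 4 markers tested were called higher. Of these, Krt19 and Epcam were at most 10.9 in any qHSC library and passed the filter through their hypHSC counts, so their calls add nothing. The sum of 7 mesothelial and portal fibroblast markers was highest in hypHSC 1 as well, at 20366, beside 8778 to 14818 in the other hypHSCs and 571 to 6542 in qHSCs. Dpt, at 17126, and Gas6, at 2793, made up nearly all of the sum in hypHSC 1. Upk3b, Msln, Wt1, Thy1 and Pi16 were each at most 194 in any library. The part of these cells in the Clu and C3 values was not tested. Factor I (Cfi), the protease that cuts C3b and C4b, counted 373, 97.3, 226, 158 and 298 in hypHSCs and 367, 221, 113, 441 and 297 in qHSCs (log2 fold change -0.32, SE 0.45, adjusted p = 0.579). Cd55, which speeds the decay of convertases, ranged over 11.6 to 75.5 in hypHSCs and 8.99 to 121 in qHSCs and was not called (log2 fold change 0.01, SE 0.76, adjusted p = 0.989).

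Of 36 further complement genes on a list drawn from general knowledge, 28 passed the filter, 8 were called higher and 8 lower, which is 28.6% each beside 17.8% and 21.7% of all genes tested, with a median log2 fold change of -0.32. Sftpd and Itgax, both called higher, were at most 7.24 and 9.96 in any qHSC library. Both passed the filter through their hypHSC counts, so their calls add nothing to that share. Serping1, the inhibitor of C1r, C1s and the MASPs, counted 14507, 9423, 8717, 9197 and 4353 in hypHSCs and 91862, 106608, 120936, 73201 and 92053 in qHSCs and fell with its target proteases (log2 fold change -3.47, SE 0.29, adjusted p = 4.03e-06). C1qtnf1, a secreted C1q-domain protein, had a log2 change of -4.52. The genes called lower that passed 1000 normalized counts thus included an inhibitor as well as proteases.

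The genes of that list called higher and above 1000 normalized counts were surface molecules of leukocytes for the most part. Itgam and Itgb2, the chains of complement receptor 3, had log2 changes of 7.45 (adjusted p = 1.31e-04) and 6.54 (adjusted p = 7.54e-06). Lair1, an inhibitory receptor that binds C1q, had 5.54. Vsig4, a Kupffer cell receptor for C3 fragments, had 2.86 with values of 2936 to 7219.9 in hypHSCs and 131 to 6669 in qHSCs, and Cd5l, a macrophage protein, 3.23. Both overlapped between groups, with the high qHSC values again in qHSC 1 and 4. C1qbp, a mitochondrial protein that binds C1q, had 1.84. Cr1l (Crry), the broad membrane regulator of rodents, and Calr, a chaperone that can bind C1q, were not called, at -0.31 (adjusted p = 0.368) and -0.23 (adjusted p = 0.318).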

How the data were processed

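Reads (2 × 59 bases, oligo-dT priming with template switching, strand not used) were mapped by the authors with STAR to mm39 (GRCm39) and counted per gene with featureCounts (Subread 1.5.0). The deposited signal is the count divided by the DESeq2 size factor of the library, called a normalized count here. Each column was multiplied back to whole reads, which held for 100% of values (tolerance 0.05 reads), and these reads served depth, FPKM, DESeq2 (version 1.42.0) and edgeR (version 4.0.16), which called 5822 and 5280 genes.

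Of 62322 entries, 25233 had a gene symbol and were used. The 37089 others held 8.98% to 29.1% of reads. Those reaching 10 normalized counts in 5 or more libraries were fitted with limma (version 3.58.1, R 4.3.3) on log2(normalized count + 1), hypHSCs against qHSCs over 10 libraries, with Benjamini-Hochberg adjustment. Fold changes on that scale understate changes of low genes. Calls required a log2 fold change of 1 or more in either direction and an adjusted p no higher than 0.05. SE is that of limma. Exon lengths came from GENCODE vM39, so ranks per length depend on its transcripts. The fit was tested on simulated data. All members are named, with every value where the gene was tested and averaged 100 or more normalized counts in a group, and further complement genes are given values from a mean of 1000, of which some are not reported here. Members, lists and tests were chosen with earlier results of these data known. Alternatives varied the pseudocount, filter, scaling, test, replicate block and libraries.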

Additional observations from a re-analysis of the deposited data

Results flagged for a closer look

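In 5 cases a library stood apart from the other 4 of its group by a Dixon test at 95%. The test was run in both groups of each of the 34 genes tested. It flags about 1 in 20 groups by chance, so a few such cases would arise by chance alone. Fcna was 4080.0 normalized counts in hypHSC 4 and 1792 to 2225 in the other hypHSCs. Colec10 was 34.9 in hypHSC 3, and the others held 123 to 177. Vtn was 94.8 in hypHSC 3 beside 337 to 498. Among qHSCs, Cd59a was 449 in qHSC 2 beside 669 to 778, and Clu was 11416 in qHSC 3 beside 22908 to 29231. Without qHSC 2, Cd59a fell below the fold threshold, at 0.99. The other 4 genes kept their side of the threshold when the library was left out.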

How the results depend on the processing

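Of 778 fold changes of single genes under an alternative, 724 kept their direction and side of the threshold, 7 lost the call, 29 gained it and 18 changed sign, and 20 of the 34 genes kept both throughout. Counts of calls stayed within 1.5 times in 134 of 135 cases. The exception was scaling on Hprt, Pgk1 and Actb, where 17 members were lower and 8 higher, the median of all genes being -1.12 (1472 genes higher, 6989 lower). The same-total scaling gave 8 higher and 15 lower (median -0.54, 4224 of 6246 called genes lower). Leaving out 1 library gave 19 to 24 members, 8 to 10 higher and 11 to 14 lower, and 5241 to 5914 genes. Without qHSC 1 and 4, chosen after seeing the data, 10 members were higher and 10 lower.

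Sign changes concerned genes that were not called. Cd55 was -0.0089 with a pseudocount of 5, -0.33 with the same total, -0.88 on the reference genes, -0.29 in DESeq2 and in edgeR, -0.70 with the 12 week hypHSCs alone, and -0.38 to 0.58 leaving out 1 library. Mbl1 was 0.20 in DESeq2 and in edgeR, 0.040 with the 12 week hypHSCs alone, 0.27 without qHSC 1 and 4, and -0.74 to 0.25 leaving out 1 library. Colec12 was -0.30 on the reference genes, and Cfi 0.091 without qHSC 1 and 4. The cause was not tested.

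Replicate numbers did not pair the samples, since the correlations of same-numbered libraries were 0.0658, 0.0734, 0.00815, 0.0616 and 0.129, and number 5 was the 1 that correlated best with its own number both ways. A fit with the replicate number as a block called 22 members, 9 higher and 13 lower, and 5786 genes, with Mbl2 (adjusted p = 0.0104) and C4b (adjusted p = 0.0249) gained. Levels under 3 reads could not be told from 0.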

Other observations

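The C5a receptors differed in balance between libraries. The ratio of C5ar1 to C5ar2 counts was 25.6, 56.9, 43.1, 8.91 and 2.46 in hypHSC 1 to 5, and 5.57, 0, 1.42, 3.47 and 0.685 in qHSC 1 to 5, so hypHSC 5 lay within the qHSC range. The ratio of C3ar1 to C5ar1 counts was steadier in hypHSCs, at 1.38 to 2.08. These ratios compare counts of different genes, so their order across libraries can be read but their absolute size cannot.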
